A study of Mus musculus with 12 samples.

Results

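The 6 genes described here, Pgk1, Camk2b, Lemd1, Pgc, Cd59a and Efcab7, were taken from the 16080 genes measured in isolated alveolar epithelial type 2 cells (AEC2) of mice carrying different alleles of Sftpc, the gene for surfactant protein C (SP-C). They were chosen by their mean levels, that in C185G libraries lying between the means in WT and C185Gneo libraries, the order that Sftpc mRNA itself follows. Since the means of all 3 groups chose these genes, every difference between genotypes is given for them as a description, without a test. Across all measured genes, the C185G mean lay between the other two in 1508 (9.38%).

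All 12 libraries came from female Bl6 mice at postnatal day 56 that received 200 mg/kg tamoxifen by intraperitoneal injection on 2 days, WT included, with cells isolated on day 7. Each genotype had 4 libraries: SP-C WT; SP-C C185Gneo, which the series names as its hypomorphic control; and SP-C C185G, in which a cysteine substitution in the BRICHOS domain of SP-C was induced. AEC2 were enriched from Dispase-treated lungs by removing cells that stick to plastic and CD45-positive cells, and total RNA was sequenced. The labels do not say how the alleles were built, what tamoxifen acted on in each genotype, or whether each library was 1 animal, so the p-values below measure the spread between libraries, which may be technical. The titles of the 4 libraries of genotype C185Gneo read C185G and those of genotype C185G carry another code. The genotype field was followed.

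Recovered read counts summed to between 15659512 and 23444287 per library over the measured genes. All 12 AEC2 markers on the list, Sftpc among them, were measured, and their summed level was 34404 to 40308 normalized CPM (reads scaled to a common library size) in WT, against 31023 to 35347 in C185Gneo and 14665 to 17457 in C185G. Without Sftpc, the other 11 summed to 27193 to 32854 in WT, 30251 to 34268 in C185Gneo and 11606 to 14609 in C185G. All 11 were called lower in C185G than in WT, whereas in C185Gneo the 1 marker of the 12 called lower was Sftpc itself. In bulk RNA, fewer cells of a type and less RNA per cell cannot be told apart. A gene was called when its adjusted p was under 0.05 in limma, a linear model fitted to every gene, and 55% of all genes were called in C185G against WT, 57.8% in C185G against C185Gneo and 0.541% (87 genes) in C185Gneo against WT. The last count ranged from 40 to 112 when 1 library was left out. It came to 40, 45 and 51 without WT replicate 1, 3 or 4, and to 43, 42 and 44 without C185Gneo replicate 1, 2 or 3.

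Pgk1 encodes phosphoglycerate kinase 1, the glycolytic enzyme that makes ATP from 1,3-bisphosphoglycerate, and it is a classical target of hypoxia-inducible factor. Camk2b encodes the β subunit of calcium/calmodulin-dependent protein kinase II, best known from neurons. Pgc encodes progastricsin, an aspartic protease precursor of the stomach that is also made by AEC2. Cd59a encodes a membrane-anchored inhibitor of the complement membrane attack complex, Efcab7 an EF-hand protein that helps tether the EVC-EVC2 complex to the base of the primary cilium, and Lemd1 a LEM domain protein known mainly from testis and tumours. The promoter of Pgk1 is strong in most cell types and is often used to drive neomycin resistance cassettes. The labels name neo in the C185Gneo genotype and do not name its promoter.

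The genes lie on 6 different chromosomes, none of them that of Sftpc (GRCm38 14:70520949-70524081, minus strand). By GENCODE, Pgk1 (ENSMUSG00000062070) spans X:106187100-106203699 on the plus strand and Camk2b (ENSMUSG00000057897) 11:5969644-6066362 on the minus strand. Lemd1 (ENSMUSG00000079330) spans 1:132191431-132259227, Pgc (ENSMUSG00000023987) 17:47726842-47734482, Cd59a (ENSMUSG00000032679) 2:104095801-104115354 and Efcab7 (ENSMUSG00000073791) 4:99829198-99912788, all on the plus strand. The values are sums of reads over whole genes. Efcab7 shares sequence with Itgb3bp on the opposite strand, and whether the counting used strand is not given in the sources used here. Lemd1 overlaps Mir135b and other genes that are not among those measured.

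Promoter entries of RefSeq (GRCm38.p6) matched 5 of the 6 genes, all but Efcab7. The 250 bases before the start are printed for Pgk1, the gene with the highest level and the largest difference of C185Gneo above WT, and for Pgc, which followed it most closely across libraries, so that the promoters of a housekeeping enzyme and a tissue-restricted protease can be set side by side. They cover chrX:106186850-106187099 and chr17:47726592-47726841, both on the plus strand, written 5′ to 3′ with matches to 4 motifs in capitals. The motifs, searched on both strands, were ACGTG (the core of the hypoxia response element), TATAAA (the TATA box), GGGCGG (the GC box) and CCAAT, and none of the marked matches share a base.
Pgk1: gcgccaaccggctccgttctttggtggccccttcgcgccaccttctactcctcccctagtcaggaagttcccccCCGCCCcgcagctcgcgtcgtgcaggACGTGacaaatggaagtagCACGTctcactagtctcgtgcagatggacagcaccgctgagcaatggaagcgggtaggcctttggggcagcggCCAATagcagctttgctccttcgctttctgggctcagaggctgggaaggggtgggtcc
Pgc: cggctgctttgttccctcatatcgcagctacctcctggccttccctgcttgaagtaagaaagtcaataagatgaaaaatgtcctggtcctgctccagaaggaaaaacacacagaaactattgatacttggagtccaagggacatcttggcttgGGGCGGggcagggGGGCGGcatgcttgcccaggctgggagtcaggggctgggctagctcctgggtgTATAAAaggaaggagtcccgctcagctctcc
The Pgk1 window had a GC content of 62.8% (median of all windows 52.4%) and held 2 matches to ACGTG, 1 to GGGCGG, 1 to CCAAT and 0 to TATAAA. The Pgc window, at 54.8% GC, held 1 TATAAA and 2 GGGCGG. The Camk2b window had a GC content of 78.4% with 3 GGGCGG matches, a pair of which share a base, the Lemd1 window 1 CCAAT, and the Cd59a window none of the 4. The RefSeq start used for Camk2b lay 614 bases from its GENCODE start, that of Lemd1 5 bases, and those of Pgk1, Pgc and Cd59a 0. Of 32851 windows of the same length, 16.6% held ACGTG, 12.4% TATAAA, 32.7% GGGCGG and 33.8% CCAAT, so no motif was found in all 5 of these genes and each is common elsewhere. A match is a string of letters and was not tested as a binding site.

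Sftpc gives the reference order. Its level was 7454, 7674, 7530.4 and 7211 normalized CPM in WT replicates 1 to 4, 1079, 793, 936 and 772 in C185Gneo, and 2847, 2471, 2954 and 3059 in C185G. The groups did not overlap: WT stood highest, C185Gneo lowest, and C185G between them. The plot of levels by library shows that 5 of the 6 genes run the opposite way, highest in C185Gneo, and that 1, Lemd1, runs with Sftpc.

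Among markers of airway secretory cells, 1 of 6 was called in C185Gneo against WT, where 0.541% of all genes were called. All 6 club and goblet cell markers were measured, with a sum of 5357 to 7352 normalized CPM in WT, 5874 to 7319 in C185Gneo and 4574 to 5272 in C185G. Muc5b, which encodes an airway mucin, was at 174 ± 51.2 in WT, against 526 ± 58.3 in C185Gneo and 205 ± 58.7 in C185G (SD, n = 4), with the C185G mean between the others. Its log2 difference between C185Gneo and WT was 1.64 (adjusted p = 0.0141, limma), and the call was lost without C185Gneo replicate 1 (adjusted p = 0.0573) or C185Gneo replicate 3 (adjusted p = 0.0591). Bpifa1, an airway secretory protein gene, was at 24.6 ± 15.4, 175 ± 25.5 and 38.0 ± 24.0, and the secretoglobin gene Scgb3a1 at 103 ± 23.1, 228 ± 17.8 and 108 ± 43.0. Both were above every WT library in C185Gneo without a call (adjusted p = 0.0555 and 0.112). Bpifa1 was called in 3 of 10 alternative limma fits, voom weights among them (adjusted p = 0.0408), and in 2 of 12 with 1 library left out. Scgb3a1 was called in 2 of the 10, with the lowest adjusted p (0.0106) from only the 8 libraries compared, and in 1 of the 12. The club cell genes Scgb1a1, Scgb3a2 and Cyp2f2 were not called in C185Gneo. The part of these cells in the levels of the 6 genes was not tested.

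**Figure D1:**
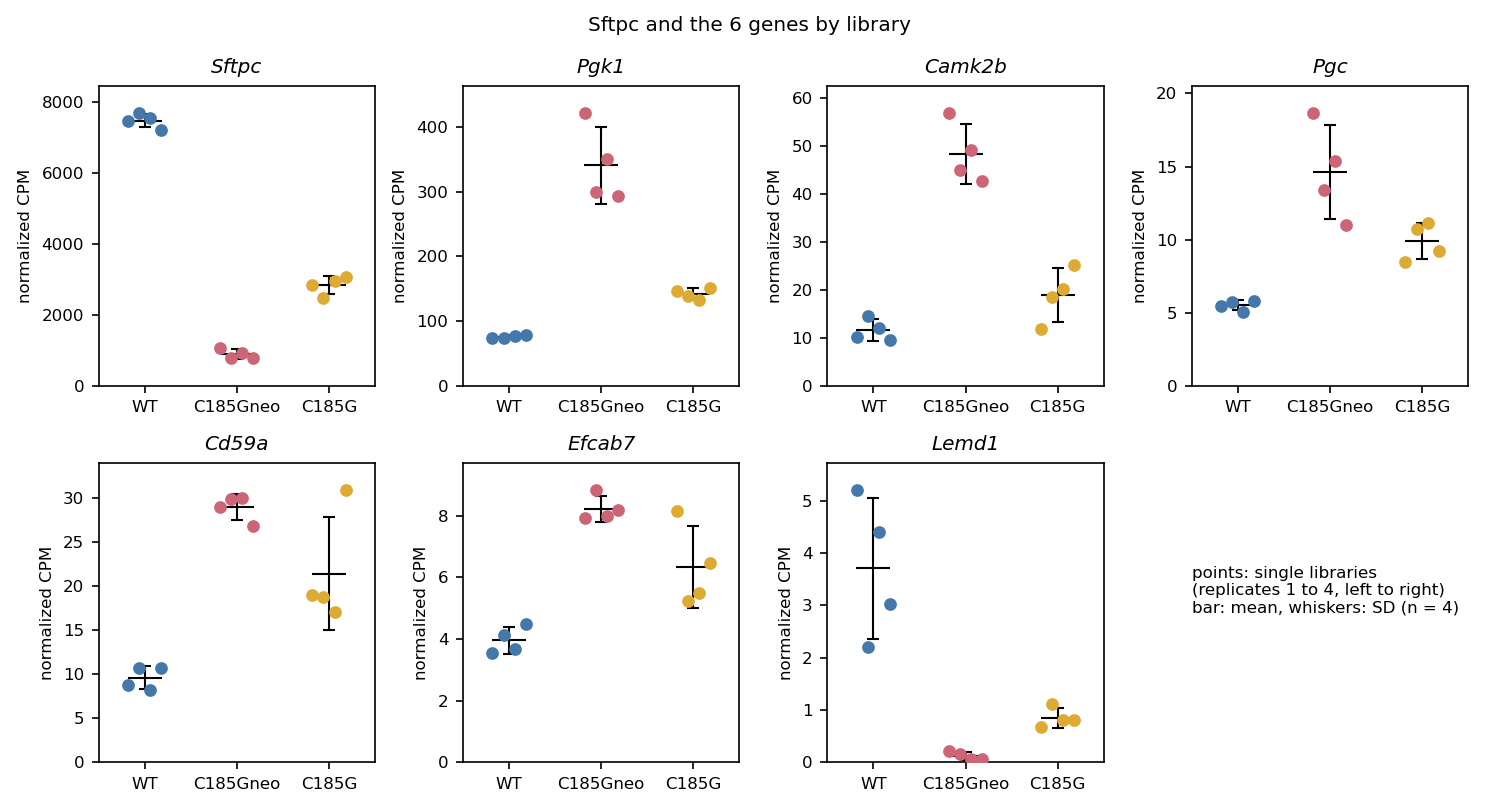
Normalized CPM of Sftpc and the 6 genes in each of the 12 libraries, on linear axes from 0, with points for libraries, a short line for the group mean and whiskers for the SD (n = 4). Pgk1, Camk2b, Pgc, Cd59a and Efcab7 are highest on average in C185Gneo and Lemd1 is lowest there; the 3 groups are separate for Sftpc, Pgk1 and Lemd1.

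Pgk1 was the most abundant of the 6 genes and one of those whose 3 groups did not overlap. Its level was 74.5, 73.4, 77.5 and 79.0 normalized CPM in WT replicates 1 to 4, 421, 299, 350.0 and 293 in C185Gneo, and 147, 138, 133 and 152 in C185G. C185Gneo replicate 1 was above the other 3 of its group. Between 1281 and 1390 reads per library lay behind the WT levels, 5042 to 9850 behind those of C185Gneo and 2444 to 2973 behind those of C185G. The mean was 76.1 ± 2.55 in WT, but 341 ± 59.5 in C185Gneo and 143 ± 8.38 in C185G (SD, 4 libraries each), which is 4.48 times the WT mean in C185Gneo and 1.87 times in C185G. On the log2 scale the differences from WT were 2.15 and 0.90 (SE 0.0948). The C185Gneo difference was the 10th highest of the 16080 genes.

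No other glycolysis enzyme was called in C185Gneo against WT. Of 20 measured enzymes on a list of 22, 0 were called in C185Gneo against WT by limma, 2 had an unadjusted p under 0.05 (10%, against 9.54% of all genes), and 0 were called by limma with voom weights. Their median difference was -0.01 and the largest in size -0.44 (Pklr, liver pyruvate kinase), on the log2 scale. Per kilobase of exon, Pgk1 ranked 8th of the 21 enzymes in WT at 33.9 normalized CPM per kb, 3rd in C185Gneo at 152 and 6th in C185G at 63.5, while the median enzyme was at 14.4, 14.9 and 19.5.

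In C185G the pathway was called about as often as other genes. Against WT 7 of the 20 were called higher and 5 lower (median log2 difference 0.125), where 27.3% and 27.8% of all genes were, so that 12 of the 20 (60%) were called against 55% of all genes. Against C185Gneo 8 were higher and 5 lower (median 0.16), where 29.2% and 28.7% of all genes were. These contrasts share the C185G libraries and are given side by side. Pkm, which encodes the pyruvate kinase of most tissues, went from 465 ± 20.5 in WT and 460 ± 18.2 in C185Gneo to 1084 ± 108 normalized CPM in C185G (SD, n = 4), a log2 difference of 1.22 from WT (adjusted p = 1.04e-08) and 1.23 from C185Gneo (adjusted p = 7.77e-09). Gapdh, the enzyme just before Pgk1 in the pathway, went from 252 ± 10.6 and 246 ± 7.37 to 493 ± 38.0 (0.97 from WT, adjusted p = 1.9e-08). The enolase gene Eno1 rose by 1.15 and the aldolase gene Aldoa by 0.77 from WT (adjusted p = 1.98e-08 and 4.42e-08), while the aldolase gene Aldoc fell by 2.13. Read against its neighbour enzyme, Pgk1 amounted to 29.0 to 32.1% of the normalized CPM of Gapdh (not corrected for length) in WT, against 114 to 176% in C185Gneo and 26.6 to 33.3% in C185G. C185G libraries thus overlapped WT in this ratio and the C185Gneo libraries lay above both. The answer depends on the denominator. Of Eno1, Pgk1 was 92.4 to 99.4% in WT, 344 to 579% in C185Gneo and 73.4 to 92.3% in C185G. Every C185G library lay below every WT library, the highest only just, with medians of 77.8% in C185G and 93.4% in WT. As a share of the summed level of all 20 other enzymes, Pgk1 was 2.52 to 2.72% in WT, against 9.86 to 15.1% in C185Gneo and 3.14 to 3.85% in C185G, with no overlap between groups.

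**Figure D2:**
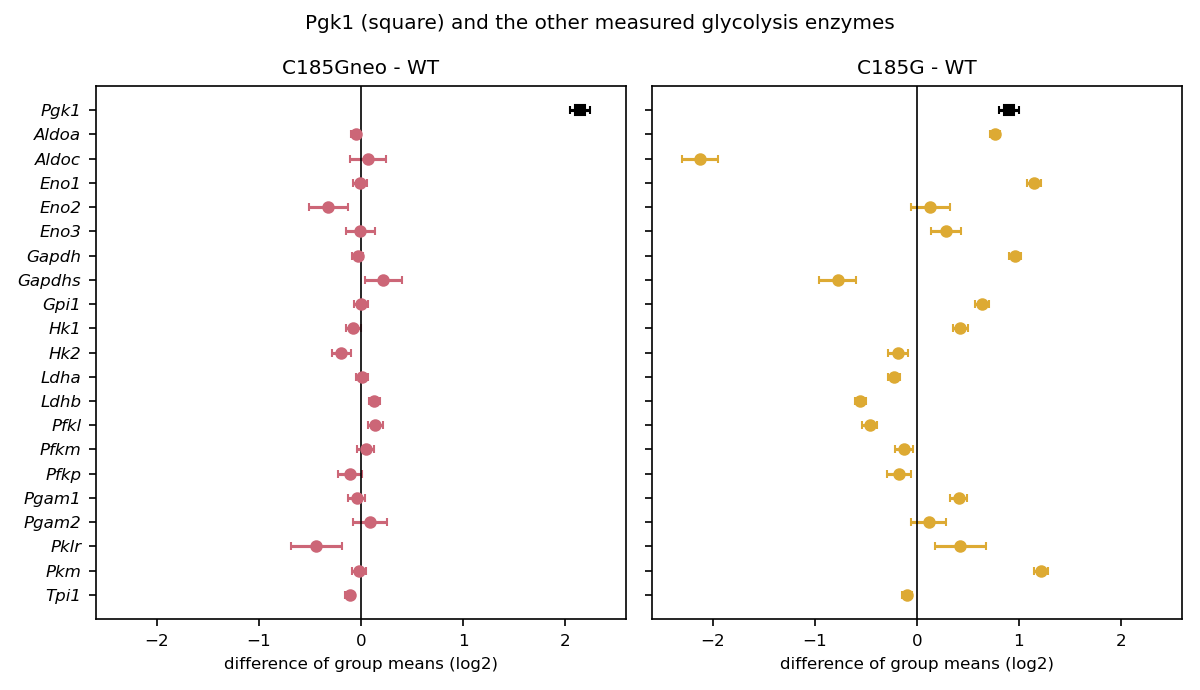
Difference of group means (log2) of Pgk1 (square) and the other measured glycolysis enzymes, with 1 panel for C185Gneo minus WT and 1 for C185G minus WT and whiskers for the SE of the limma fit. In C185Gneo against WT Pgk1 stands at 2.15 and the other 20 lie within 0.437 of 0; in C185G against WT, enzymes such as Pkm and Gapdh lie to the right of 0 and Aldoc to the left.

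Other hypoxia-responsive genes were examined because Pgk1 is one of the classical targets. Of 18 such genes outside glycolysis, all measured, 0 were called in C185Gneo against WT by limma (0.541% of all genes). In that contrast 1 had an unadjusted p under 0.05 (9.54% of all genes), and 0 were called with voom weights. The largest difference there was that of Egln3, an oxygen-sensing prolyl hydroxylase, which was -0.97 and not called (adjusted p = 0.594). In C185G against WT 4 were called higher and 8 lower (27.3% and 27.8% of all genes), and against C185Gneo 6 and 8 (29.2% and 28.7%). Ndrg1, a stress-induced gene, was at 66.0 ± 9.14 normalized CPM in WT, against 50.6 ± 10.7 in C185Gneo and 249.99 ± 19.6 in C185G, a log2 rise of 1.93 from WT (adjusted p = 2.32e-07). The hypoxia-induced gene Ankrd37 fell by 1.66 from WT in C185G, the prolyl hydroxylase gene Egln1 by 0.74, the vascular growth factor gene Vegfa by 0.67 and the pyruvate dehydrogenase kinase gene Pdk1 by 0.44. Calls in both directions are also what all genes show.

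The difference of Camk2b between C185Gneo and WT was close in size to that of Pgk1, at a lower level. It was at 10.2, 14.6, 12.1 and 9.62 normalized CPM in WT replicates 1 to 4, 56.8, 44.9, 49.1 and 42.6 in C185Gneo, and 11.7, 18.4, 20.3 and 25.1 in C185G. C185Gneo stood clear of both other groups, but C185G replicate 1 fell inside the WT range. The means were 11.6 ± 2.25, 48.3 ± 6.24 and 18.9 ± 5.54 (SD, n = 4), from counts of 156 to 258 in WT and 733 to 1327 in C185Gneo. The mean in C185Gneo was 4.16 times that in WT and the mean in C185G 1.63 times. The log2 differences from WT were 2.06 and 0.67 (SE 0.204), the former ranking next after that of Pgk1.

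Beside Camk2b, 16 of 18 listed CaMK kinases and CaMKII regulators were measured. In C185Gneo against WT 0 were called by limma (0.541% of all genes). Of the 16, 2 had an unadjusted p under 0.05 (9.54% of all genes), and 0 were called with voom weights. Camk2d, the δ subunit gene, was at 74.1 ± 9.95 normalized CPM in WT, against 66.4 ± 1.32 in C185Gneo and 140.2 ± 8.79 in C185G, a rise of 0.93 on the log2 scale from WT to C185G (adjusted p = 5.62e-07). The γ subunit gene Camk2g was not called in any contrast (70.0, 69.7 and 76.7). In C185G against WT 5 genes of the list were called higher and 6 lower (27.3% and 27.8% of all genes). Against C185Gneo 6 were higher and 6 lower (29.2% and 28.7%). The CaMKII inhibitor gene Camk2n1 fell by 1.52 from WT (adjusted p = 9.25e-09), Camk4 fell by 3.34 (adjusted p = 2.17e-08), and Camk1d rose by 1.59. As Camk2b is known best from neurons, neuroendocrine and neuronal markers were summed: 6 of 10 were measured, at 19.1 to 23.5 normalized CPM in WT, against 22.4 to 24.1 in C185Gneo and 113 to 125 in C185G. Uchl1, a deubiquitinase gene, carried the high sum in C185G with a mean of 104. Without it, the other 5 summed to 13.4 to 17.0 in WT, 16.4 to 18.4 in C185Gneo and 11.9 to 17.4 in C185G, where Syp, Tubb3 and Insm1 were called lower than in WT and Calca higher. The part of such cells in the level of Camk2b was not tested.

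In normalized CPM the genotypes were more evenly spaced for Pgc than for Pgk1 or Camk2b, and closer together. It was at 5.49, 5.77, 5.07 and 5.79 normalized CPM in WT replicates 1 to 4, 18.6, 13.4, 15.4 and 11.03 in C185Gneo, and 8.50, 10.7, 11.1 and 9.24 in C185G. Both mutant genotypes lay above all WT libraries, whereas C185G replicate 3 reached into the C185Gneo range. The means were 5.53 ± 0.336, 14.6 ± 3.23 and 9.89 ± 1.23 (SD, n = 4), or 2.64 times WT in C185Gneo and 1.79 times in C185G, with log2 differences of 1.37 and 0.83 (SE 0.145).

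Beside Pgc, 12 of 16 listed aspartic proteases were measured. In C185Gneo against WT 0 were called by limma (0.541% of all genes). Of the 12, 2 had an unadjusted p under 0.05 (9.54% of all genes), and 0 were called with voom weights. Napsa encodes napsin A, the aspartic protease of AEC2 that helps process SP-B. It was at 789 ± 94.7 in WT, against 935 ± 76.3 in C185Gneo and 330 ± 27.6 normalized CPM in C185G, where it fell by 1.25 on the log2 scale from WT (adjusted p = 9.39e-08). The lysosomal protease gene Ctsd rose from 334 ± 4.38 to 817 ± 63.3 in C185G (1.29, adjusted p = 1.27e-09). Ctse, a gastric relative of Pgc, had a log2 difference of 0.87 from WT in C185G (adjusted p = 0.0216) at about 1 to 2 normalized CPM, and the adjusted p was 0.0669, 0.0642 and 0.0523 without WT replicate 3, C185G replicate 3 or C185G replicate 4. In all, 4 genes of the list were called higher and 2 lower in C185G against WT (27.3% and 27.8% of all genes). Against C185Gneo 5 were higher and 2 lower (29.2% and 28.7%). Of 10 gastric chief and parietal cell markers, 3 were measured, with a sum of 22.8 to 48.3 in WT, against 32.6 to 50.8 in C185Gneo and 16.3 to 32.7 in C185G. Ranges of WT and C185Gneo overlapped and no marker of the list was called between them.

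Cd59a was higher in both C185Gneo and C185G than in WT. The values were 8.75, 10.7, 8.25 and 10.7 normalized CPM in WT replicates 1 to 4, 29.0, 29.8, 30.04 and 26.8 in C185Gneo, and 19.0, 18.7, 17.0 and 30.9 in C185G. All C185Gneo and C185G libraries exceeded all WT libraries. C185G replicate 4 exceeded every C185Gneo library, while the other 3 C185G libraries lay below them. The means were 9.60 ± 1.29, 28.9 ± 1.47 and 21.4 ± 6.40 (SD, n = 4), with log2 differences from WT of 1.60 in C185Gneo and 1.12 in C185G (SE 0.158). Without C185G replicate 4 the latter was 0.93.

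Among complement regulators and terminal components, 10 of 15 were measured and Cd59b, the paralog of Cd59a, was not among them. In C185Gneo against WT 0 were called by limma (0.541% of all genes). Of the 10, 1 had an unadjusted p under 0.05 (9.54% of all genes), and 0 were called with voom weights. In C185G against WT 2 were called higher and 3 lower (27.3% and 27.8% of all genes). Against C185Gneo 3 were higher and 2 lower (29.2% and 28.7%). Hc, which encodes complement C5, was at 3326 ± 335 in WT, against 3859 ± 70.6 in C185Gneo and 535 ± 59.6 normalized CPM in C185G, a fall of 2.64 on the log2 scale from WT. C6, like C5 a component of the membrane attack complex, fell by 2.62, while the fluid-phase inhibitor gene Clu rose by 1.92 and C7 by 1.19 (adjusted p = 0.012). Against C185Gneo the differences were -2.86 for Hc and -2.64 for C6.

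Efcab7 had the smallest differences of the 6. It was at 3.55, 4.13, 3.68 and 4.50 normalized CPM in WT replicates 1 to 4, 7.91, 8.84, 7.97 and 8.19 in C185Gneo, and 8.14, 5.22, 5.50 and 6.47 in C185G. C185G replicate 1 fell in the C185Gneo range and the other 3 between the groups. The means were 3.96 ± 0.436, 8.23 ± 0.423 and 6.33 ± 1.32 (SD, n = 4), with log2 differences from WT of 1.05 and 0.66 (SE 0.141). Itgb3bp, which shares sequence with it on the opposite strand, differed by 0.20 between C185Gneo and WT and was not called (adjusted p = 0.864).

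All 18 listed genes of the EVC complex and the hedgehog pathway were measured. In C185Gneo against WT 0 were called by limma (0.541% of all genes). Of the 18, 2 had an unadjusted p under 0.05 (9.54% of all genes), and 0 were called with voom weights. Their median log2 difference in this contrast was nevertheless -0.234, with a median size of 0.254 against 0.088 for all genes. The cause of this shift was not tested. Evc and Evc2, whose products Efcab7 tethers, were at 5.35 ± 1.09 and 9.66 ± 2.02 normalized CPM in WT, 4.34 ± 1.44 and 11.2 ± 1.54 in C185Gneo, and 4.92 ± 0.630 and 8.97 ± 1.73 in C185G, with no call in either contrast with WT. Iqce, whose product works with that of Efcab7 in the tether, was at 54.1 ± 4.51 and 54.7 ± 4.39 in WT and C185Gneo and fell by 0.44 on the log2 scale in C185G (adjusted p = 0.00474). In C185G against WT 2 genes of the list were called higher and 6 lower (27.3% and 27.8% of all genes). Without C185G replicate 3 that was 5 in all. Against C185Gneo 3 were higher and 6 lower (29.2% and 28.7%). The receptor gene Ptch1 fell by 0.58 (adjusted p = 3.26e-05), the pathway inhibitor gene Sufu fell by 0.49 and Gli3 by 0.48 (adjusted p = 0.0153, and 0.0502 with a difference of -0.36 without C185G replicate 3). Since Efcab7 acts at cilia, the 9 ciliated cell markers were summed, though these mark cells with motile cilia and do not measure primary cilia. The sum was 1286 to 1777 normalized CPM in WT, against 1189 to 1544 in C185Gneo and 916 to 1411 in C185G. In C185G 4 of the 9 were called lower than in WT (27.8% of all genes), and in C185Gneo 0 (0.292%).

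Lemd1 was the one gene of the 6 that was lowest where Sftpc mRNA was lowest, and the one with few reads. The counts were 91, 39, 79 and 49 in WT replicates 1 to 4, 5, 3, 1 and 1 in C185Gneo, and 13, 24, 15 and 13 in C185G. In normalized CPM this is 3.71 ± 1.35, 0.125 ± 0.0783 and 0.851 ± 0.189 (SD, n = 4). Every WT library lay above every C185G library, and these above every C185Gneo library. Summed over libraries, 258 counts in WT stood against 10 in C185Gneo and 65 in C185G, so that WT held 28.1 times the scaled level of C185Gneo and 4.32 times that of C185G. With 10 counts in the lowest group, these ratios are imprecise. The fitted log2 differences, which depend on the offset added to low counts, were -4.69 for C185Gneo and -2.04 for C185G against WT (SE 0.373). The former ranked 4th lowest of 16080 and that of Sftpc, at -3.07, ranked 20th lowest. With log2(CPM + 1) in place of the deposited offset, the difference of C185Gneo from WT was -2.02.

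The LEM domain and lamina list of Lemd1 held 10 measured genes of 11. In C185Gneo against WT 0 were called by limma (0.541% of all genes). Of the 10, 1 had an unadjusted p under 0.05 (9.54% of all genes), and 0 were called with voom weights. In C185G against WT 2 were called higher and 4 lower (27.3% and 27.8% of all genes), with small differences. Lbr, the lamin B receptor gene, fell by 0.32 (adjusted p = 0.000575) and Lemd3 by 0.24. Lemd2 rose by 0.31 (adjusted p = 0.0014) and Ankle2 by 0.25 (adjusted p = 0.00328). Against C185Gneo 4 were called higher and 4 lower (29.2% and 28.7%). That was 5 in all without C185G replicate 3 or without C185G replicate 4. Lmna, the lamin A gene, was 0.52 above C185Gneo (adjusted p = 0.00237) and 0.29 above WT, the latter near the threshold (adjusted p = 0.0556, and 0.00778 without C185Gneo replicate 1). Of 9 germ cell markers, 1 was measured, at 0.669 to 1.09 normalized CPM in WT, against 0.581 to 0.952 in C185Gneo and 0.745 to 1.48 in C185G, with overlap between all groups.

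Over all 7 lists, 104 of 118 genes were measured. In C185Gneo against WT 0 were called by limma (0.541% of all genes) and 11 (10.6%) had an unadjusted p under 0.05 (9.54%). With voom weights 0 were called. In C185G against WT 60 were called (57.7%, against 55% of all genes) and against C185Gneo 68 (65.4%, against 57.8%). These shares are near those of all genes.

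Side by side, the 6 genes differed in where C185G stood between the other genotypes. On the log2 scale from WT to C185Gneo, the C185G mean lay 45.6% of the way for Sftpc, 42.1% for Pgk1, 43.4% for Lemd1 and 32.3% for Camk2b. It lay 60.3% of the way for Pgc, 62.3% for Efcab7 and 70.3% for Cd59a. The order depends on the scale: in normalized CPM the C185G mean lay 70.5% of the way for Sftpc and 79.7% for Lemd1, but 25.1% for Pgk1, 19.8% for Camk2b, 48.0% for Pgc, 55.6% for Efcab7 and 61.2% for Cd59a. On the log2 scale, leaving out 1 library moved the value of Pgk1 between 40.7 and 44.3%, but that of Camk2b between 24.8 and 42.5%, of Efcab7 between 50.2 and 70.4% and of Cd59a between 58.4 and 76.4%. The lowest value of Camk2b and of Cd59a came without C185G replicate 4, and the lowest of Efcab7 and the highest of Camk2b without C185G replicate 1. On the log2 scale, that of Sftpc was 19.3% after quantile normalization and that of Lemd1 64.6% with log2(CPM + 1). The median size of the difference over all genes was 0.34 in C185G against WT and 0.09 in C185Gneo against WT.

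**Figure D3:**
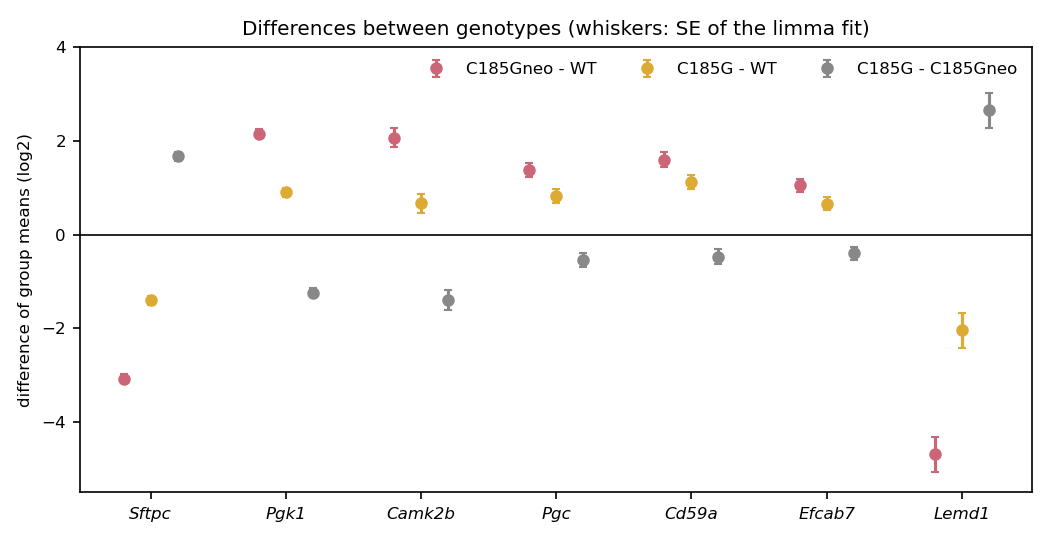
Difference of group means (log2) of Sftpc and the 6 genes in each contrast, with whiskers for the SE of the limma fit over 12 libraries. In C185Gneo against WT the genes run from 2.15 (Pgk1) to -4.69 (Lemd1), and the difference of C185G from WT has the same sign and is smaller for each gene.

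Counting libraries in place of means, the C185Gneo and WT libraries did not overlap in 6 of the 6 genes, which holds for 6.86% of all genes. C185G and WT did not overlap in 5, Camk2b being the exception, where 48.7% of all genes did not. C185G and C185Gneo did not overlap in 3 (Pgk1, Camk2b and Lemd1), where 49.9% of all genes did not. All 3 pairs of groups were separate, with C185G between, for Pgk1 and Lemd1 of the 6 and for 6 genes (0.0373%) of all 16080. Among the 87 genes called in C185Gneo against WT, the C185G mean lay between in 41.4%, and with all pairs separate in 6.9%. These counts rest on the values that chose the genes and nothing is read from them.

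Within the C185Gneo group, the libraries ranked 1, 3, 2, 4 from highest to lowest for Sftpc, and Pgk1, Camk2b and Pgc had exactly this order. Among 11619 genes with a mean of at least 5 normalized CPM, 6.27% had it. Within C185Gneo the levels of these 3 genes thus ran in the same direction as Sftpc, whereas between genotypes they ran opposite to it. C185Gneo replicate 1 also had the most reads of the 12 libraries (23444287). Within C185Gneo the other 11 AEC2 markers summed to 30251 to 34268 normalized CPM, and the highest sum was that of replicate 1. Each of the 11 except Sftpb was also highest in replicate 1, for example Abca3 at 3280 in a group range from 2512. The part of depth or cell content in this order was not tested. In WT the order of Sftpc was shared by Camk2b alone of the 6, and in C185G by 0 (3.38% of all genes of that level). The plot of levels against Sftpc shows both directions.

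**Figure D4:**
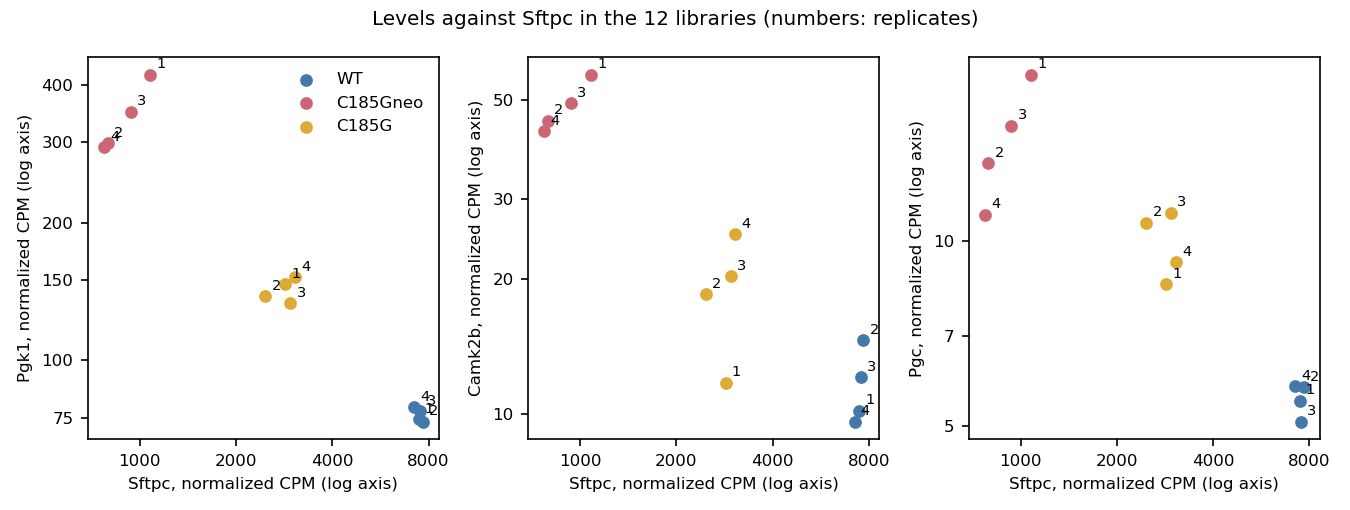
Normalized CPM of Pgk1, Camk2b and Pgc against that of Sftpc in the 12 libraries, on log axes, with replicate numbers beside the points. The 3 genotypes form separate clusters along the Sftpc axis, and within C185Gneo replicate 1 is highest in Sftpc, Pgk1, Camk2b and Pgc.

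The genes with the most similar profile over the 12 libraries, by Pearson r of log2 values among genes with a mean of at least 5 normalized CPM, were often one another. The libraries fall into 3 genotypes, so these coefficients mainly follow the group means and are a description. For Pgk1 the highest of named genes were Pgc (0.946), Camk2b (0.945) and Mrps9 (0.927), a mitochondrial ribosomal protein gene. Camk2b was closest to Mrps9 (0.968), the scavenger receptor gene Scara5 (0.955) and Pgk1 (0.945). Pgc was closest to Pgk1, Mrps9 (0.925) and the receptor chaperone gene Ric3 (0.909). Cd59a and Efcab7 were closest to each other (0.923), then to Pgk1 (0.905 and 0.902) and Ric3 (0.898 and 0.876). Lemd1 was closest to Sftpc (0.968), followed by Stoml1 (0.888) and the interferon-induced gene Ifitm1 (0.887). Predicted genes or pseudogenes ranked among the closest of Pgk1, Pgc and Cd59a (1 each) and of Efcab7 (2). Mrps9 was at 35.8 ± 1.03 normalized CPM in WT, against 51.3 ± 5.08 in C185Gneo and 40.3 ± 3.67 in C185G, with the C185G and WT libraries overlapping.

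The genes beside the 6 on their chromosomes were read in the same fit. Of 60 neighbours, the 5 nearest measured genes on each side of each gene, 0 were called in C185Gneo against WT by limma. The share of all genes was 0.541%. An unadjusted p under 0.05 was found for 6 (10%, against 9.54% of all genes), and 0 were called with voom weights. One neighbour of Cd59a, the BTB domain gene Abtb2, differed by -0.45 (adjusted p = 0.0687) and was called with library quality weights (adjusted p = 0.0229) and without C185G replicate 1 (adjusted p = 0.0444). The largest difference was that of Trem2, a myeloid receptor gene 612 kb from Pgc with 0.185 normalized CPM in WT and 0.436 in C185Gneo, at 1.22 without a call (adjusted p = 0.193). Both are named after their values were seen. Against WT in C185G 21 of the 60 were called higher and 16 lower (27.3% and 27.8% of all genes), and against C185Gneo 20 and 19 (29.2% and 28.7%). The nearest gene downstream of Pgk1, Taf9b, at a gap of 3.18 kb, differed by 0.18 between C185Gneo and WT (adjusted p = 0.415), and Tlr13, 26.6 kb on the other side, by -0.20. The difference of C185Gneo from WT was -0.01 for Ykt6, 1.86 kb from Camk2b, and -0.06 for Nudcd3 on the other side. Tfeb, 2.55 kb from Pgc, differed by 0.01 and Frs3 by -0.06. Cdk18 and Klhdc8a beside Lemd1 differed by -0.06 and -0.17, Fbxo3 and Hipk3 beside Cd59a by 0.04 and -0.02, and Pgm1, next to Efcab7, by 0.09. No neighbour had the C185G mean between the others with all groups separate. Of the 10 neighbours of Sftpc, 1 was called lower in C185Gneo against WT, Reep4, at -0.33 (adjusted p = 0.0484, and up to 0.156 with 1 library left out, the highest without WT replicate 1).

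**Figure D5:**
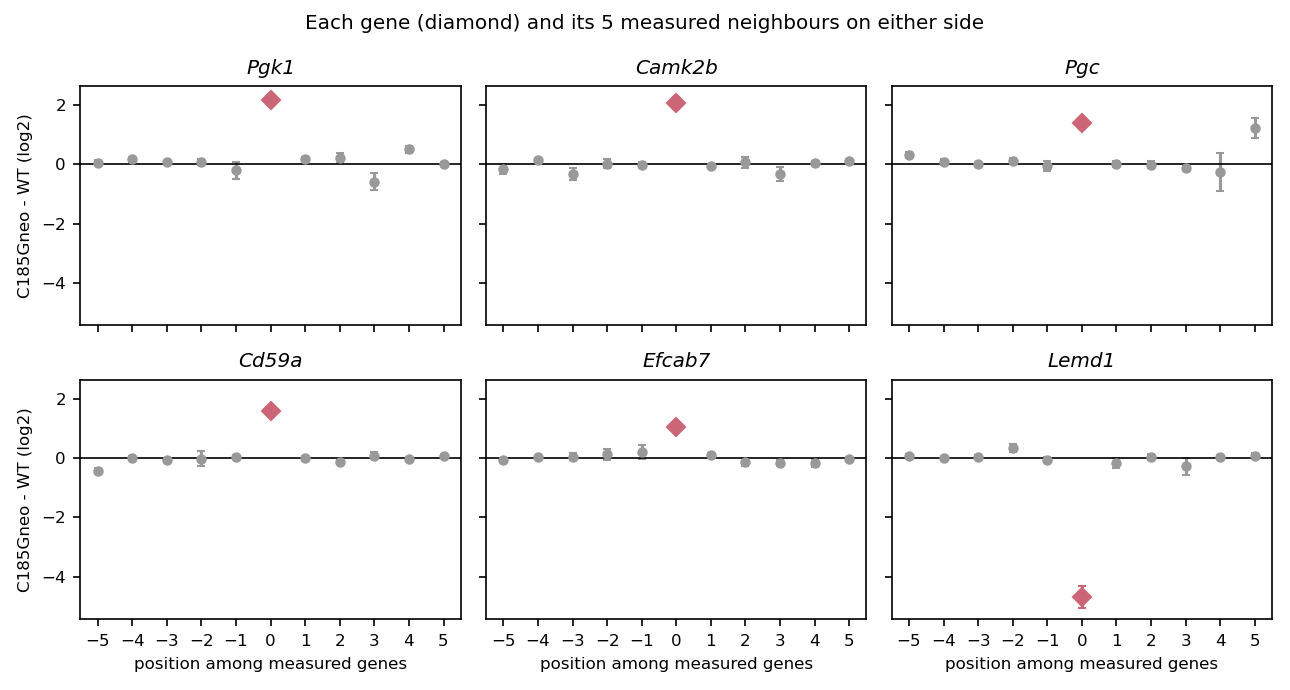
Difference of group means (log2, C185Gneo minus WT) of each of the 6 genes (diamond) and of its 5 measured neighbours on either side, in order along the chromosome. Whiskers are the SE of the limma fit. Most neighbours lie near 0, and 0 of the 60 were called (0.541% of all genes). The farthest, at 1.22, is Trem2, the last on the right of Pgc.

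The labels hold neo in the genotype of 4 libraries and say nothing more of a retained selection cassette. Gene-level counts hold no cassette sequence, and reads of endogenous Pgk1 and of Pgk1 sequence placed elsewhere cannot be told apart in them. The word neo goes with the C185Gneo genotype in all 4 libraries, so the part of a cassette, of low Sftpc mRNA and of any other feature of that line in these values cannot be told apart. Pgk1 pseudogenes and Pgk2, the testis paralog, were not among the measured genes, so the sharing of reads with these copies was not tested.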

How the data were processed

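RNA of 12 AEC2 libraries was analysed. Per the submitters' processing notes, STAR, limma and the mm10 build were used (no versions). Which counter, annotation and strandedness were used is not given in the sources used here. The deposited values are log2: from the values, the authors added 0.5 to whole read counts, scaled each library and took the log2. 100% of the counts came out whole within 1e-06. Normalized CPM is the authors' scaling brought to reads per library of a common size.

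Gene names came from GENCODE release 21 (16017 of 16080 IDs). limma 3.58.1 in R 4.3.3 (lmFit, eBayes with trend and robust) was fitted to the deposited values of all 12 libraries, with Benjamini-Hochberg adjustment over all genes, and recovered calls in tests on simulated data. The count test of the planned design was not needed, the unit being log2.

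The 6 genes and the lists were chosen with earlier results of these data known. Named were the 6 genes and Sftpc, up to 4 called genes per list and contrast with the smallest p (at least 5 CPM preferred), close paralogs, flanking genes and the 3 most similar genes. Aldoc, Pklr and Egln3 were named outside this rule for the size of their difference, after their values were seen. Predicted genes and pseudogenes were counted, except a pair named in the closing observations after their values were seen. Scalings, offset, filter, weights, blocks and left-out libraries were tried as alternatives.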

Additional observations from a re-analysis of the deposited data

Results flagged for a closer look

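One value stood far from the rest of its group. The level of Cd59a in C185G replicate 4, 30.92 normalized CPM, lay above the 17.0 to 19.0 of the other 3 C185G libraries by more than Dixon's 95% limit for 4 samples allows. Of the 21 groups checked (the 6 genes and Sftpc in 3 genotypes), this was the only one past the limit, and chance alone passes it in about 1 group of 20. The cause was not tested.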

How the results depend on the processing

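The C185G mean lay between WT and C185Gneo in 6 of 6 genes under every alternative and with each library left out. With only genes of at least 5 normalized CPM, Lemd1 dropped out and it did in 5 of 5. The genes were chosen for this order, and some alternatives, such as the replicate block, do not change the differences of means. Nothing is read from the order. No difference of the 6 genes or Sftpc changed sign. The difference of Lemd1 moved with log2(CPM + 1) to -2.02 for C185Gneo against WT and 0.72 for C185G against C185Gneo, and those of Sftpc with quantile normalization to -0.52 and -2.67 against WT and 2.15 for C185G against C185Gneo. Genes called in C185Gneo against WT numbered 87, 54 without the mean-variance trend, 162 with library quality weights, and 40 to 112 with 1 library left out. With library totals as the scaling, 59.9% of the calls in C185G against WT were higher, against 49.6%, and 58.1% against 50.5% in C185G against C185Gneo. With the replicate number as a block, 63 genes were called in C185Gneo against WT, 8670 in C185G against WT and 9112 in C185G against C185Gneo. Whether the numbers pair the samples was not settled. Residuals of same-numbered libraries correlated by -0.3 to 0.253, with 3 of 12 pairs over 0.1, and differently numbered libraries were not compared. Depth limits Lemd1, with 1 to 5 counts in C185Gneo.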

Other observations

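Beside Sftpc, Pgk1 and Lemd1, 3 other measured genes had the C185G mean between WT and C185Gneo with no overlap between any groups, and they are named after their values were seen. Clint1, which encodes a clathrin adaptor partner, had the order of Sftpc. It was at 212 ± 2.89 normalized CPM in WT, against 180 ± 8.14 in C185Gneo and 203 ± 7.69 in C185G (SD, n = 4). Its highest C185G library, at 208.2, lay just below the lowest WT library, at 209.1. In C185G against WT Clint1 was not called (log2 difference -0.07, adjusted p = 0.239, limma). The pseudogene Pisd-ps1 ran opposite to Sftpc, at 38.1 ± 4.78, 109 ± 10.2 and 55.3 ± 16.6. So did Gm28438, also annotated as a pseudogene, at 3.27 ± 0.462, 15.2 ± 1.64 and 6.94 ± 0.587. Reads of a pseudogene can be shared with its parent copy, so these levels are uncertain. Of the 5 genes here that were highest in C185Gneo, Gm28438 was among the most similar for 4, with Pearson r over the 12 libraries of 0.967 for Pgk1, 0.938 for Pgc, 0.918 for Cd59a and 0.904 for Efcab7, a description that follows the 3 group means.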
